A study of Homo sapiens with 12 samples.

Results

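The 9 metalloproteinase genes clustered at 11q22 (MMP7, MMP20, MMP27, MMP8, MMP10, MMP1, MMP3, MMP12 and MMP13, in the order in which they lie along chromosome 11) are described here by the accessible sites found among them in HT1080 cells. The genes were a fixed list, taken from 20037 protein-coding genes of autosomes, X and Y. An accessible site was included when its summit, the position of highest signal, lay between the outermost ends of the 9 genes or within 50 kb of them, a window of 535.2 kb at chr11:102470508-103005732 (GRCh38, RefSeq annotation). This gave 28 summits out of 188019 in the whole list, and each was assigned to its nearest member.

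HT1080 is an established human fibrosarcoma line. ATAC-seq, which cuts open chromatin with a transposase, was carried out after 48 h in rat tail type I collagen at 0.3 mg/mL (low), 1 mg/mL (medium) or 1.7 mg/mL (high), with 4 libraries for each of the 3 concentrations. All groups, including the low concentration, received GM6001, a broad metalloproteinase inhibitor, at 20 µM, and all were released from the gels with collagenase and frozen before the assay. The deposited data are 1 peak list that named no library or concentration. It was treated as covering the whole series, although no source used here states which libraries entered it, so none of the values below compares concentrations, none has replicates, and the depth of each library is unknown.

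Matrix metalloproteinases are zinc-dependent endopeptidases that cut components of the extracellular matrix, and many of them are secreted as inactive proenzymes. The cluster holds the interstitial collagenases MMP1, MMP8 and MMP13, which can cleave intact fibrillar collagen, and the stromelysins MMP3 and MMP10, which act on proteoglycans, laminin and other proenzymes. It also holds the short matrilysin MMP7, the macrophage elastase MMP12, the enamel protease MMP20 and the less studied MMP27. Several of these genes are known to have a compact promoter, in which a TATA box lies close to a site for the transcription factor AP-1, and are induced by growth factors and cytokines. All 9 genes are read in the same direction, so that the start of each is its end with the higher coordinate and "upstream" means towards MMP13.

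Sequence before the start is shown for 2 members with an accessible start, MMP7 and MMP10, and for 2 without one, MMP20 and MMP27, so that the letters under these sites can be compared. Each line holds the 150 bases before the start, 5′ to 3′ on the minus strand, from RefSeq (GRCh38.p14). Capitals mark the AP-1 motif (TGANTCA, searched on both strands) and the TATA motif (TATAAA, searched on the gene's strand). RefSeq windows were matched for 5 of the 9 members; MMP1, MMP3, MMP12 and MMP13 had no entry.
MMP7 (chr11:102530748-102530897): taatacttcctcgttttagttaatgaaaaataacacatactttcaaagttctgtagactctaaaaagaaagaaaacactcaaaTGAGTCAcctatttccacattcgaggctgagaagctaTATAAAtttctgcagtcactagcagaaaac
MMP10 (chr11:102780629-102780778): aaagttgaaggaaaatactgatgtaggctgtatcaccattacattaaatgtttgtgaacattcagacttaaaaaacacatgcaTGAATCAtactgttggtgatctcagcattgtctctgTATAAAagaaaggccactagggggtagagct
MMP20 (chr11:102625333-102625482): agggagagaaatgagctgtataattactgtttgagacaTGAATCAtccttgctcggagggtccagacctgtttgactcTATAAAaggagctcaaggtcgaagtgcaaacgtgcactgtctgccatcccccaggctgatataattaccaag
MMP27 (chr11:102705770-102705919): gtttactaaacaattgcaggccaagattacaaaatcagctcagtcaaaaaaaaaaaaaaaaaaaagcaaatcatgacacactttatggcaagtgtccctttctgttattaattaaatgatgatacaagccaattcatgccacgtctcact

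The promoters of MMP7 and MMP10 had the same layout. Both held an AP-1 motif that began 67 bases before the start, TGAGTCA in MMP7 and TGAATCA in MMP10, and a TATA motif that began 30 bases before the start in MMP7 and 31 bases before it in MMP10. In MMP20 both motifs were present but lay farther out, with TGAATCA at 112 bases and TATAAA at 72 bases before the start. The MMP8 window held TATAAA at 110 bases before the start and no AP-1 motif, and the MMP27 window held neither. Of all 34943 promoter windows of 300 bases (250 before and 50 after a start) on autosomes, X and Y, 7.72% held the AP-1 motif, 7.35% the TATA motif and 0.836% both, compared with 3, 4 and 3 of the 5 member windows. For factors of the ETS family, the searched letters CAGGAA or ACCGGAA, on both strands, were in 4 of the 5 member windows and in 31.2% of all windows. The PEA3 letters AGGAAG, on both strands, which overlap the ETS letters, were in 1 member window (MMP7) and in 33.7% of all windows. A match of letters is a description and does not show that a factor was bound.

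Accessible chromatin was found at the start of 4 of the 9 genes: MMP7, MMP10, MMP1 and MMP3. Each had 1 summit, between 26 and 89 bp from the start, and 3 of the 4 summits were on the upstream side. No summit lay within 1000 bp of the start of MMP20, MMP27, MMP8, MMP12 or MMP13. Across the genome, 67.6% of 15842 protein-coding genes with a listed start had a summit within the same distance, so the share in the cluster was below this background, without a test. This background counted summits in intervals of any length, also over 10 kb, and any listed start of a gene. MMP1, MMP3, MMP12 and MMP13 had no listed start and were given the gene end. Of the 5 members with a listed start, MMP7 and MMP10 had a summit there. The 4 starts fell in 2 places, MMP7 alone at one end and MMP10, MMP1 and MMP3 as consecutive genes in the other part of the cluster.

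**Figure D1:**
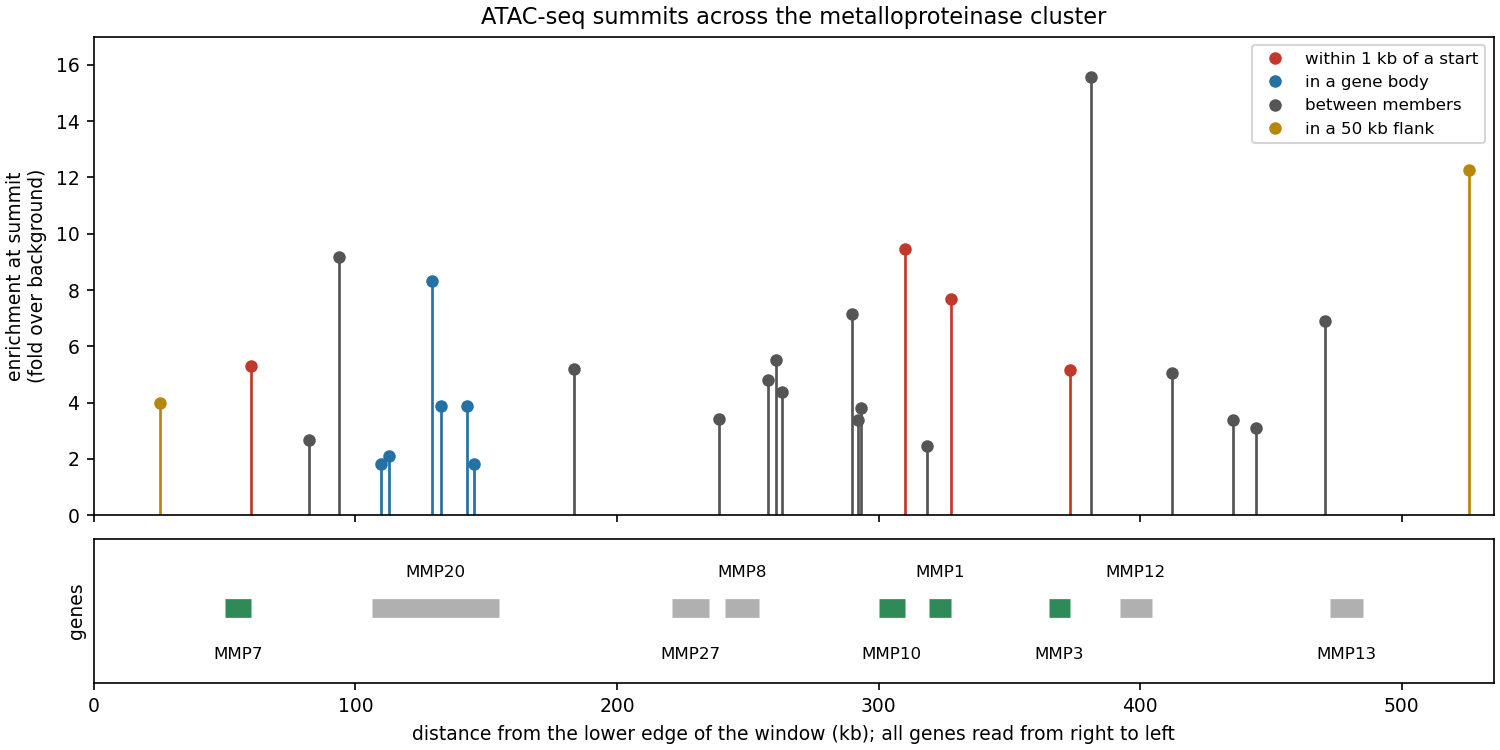
Enrichment at each of the 28 summits (vertical axis, fold over background) along the window (horizontal axis, kb from its lower edge), coloured by location, above the 9 genes (green, summit within 1000 bp of the start; grey, none). The 4 green genes are MMP7, MMP10, MMP1 and MMP3, and the tallest line, 15.6, stands between MMP3 and MMP12.

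The authors' enrichment (fold of the signal at the summit over a local background) is given below with 2 quantities recovered from the enrichment and its p-value: the pileup, or depth of overlap at the summit, and the local background, or depth expected from the surroundings. No source used here states whether the pileup counts whole fragments or extended reads, so both are given as overlap counts. The lowest background, 20.3, recurred in 53.0% of the list and is called the genome-wide level. Intervals beside pileups are exact 95% Poisson intervals and cover counting error only. They assume independent counts, which is not known here, and whether they overlap is not a test between sites.

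MMP10, stromelysin-2, had the most enriched start of the cluster. Its summit at 102780654, in the interval chr11:102780508-102780869, was enriched 9.47-fold, with a pileup of 230 (201.2 to 261.7) over a background of 23.4. The summit lay 26 bp upstream of the start, on the last base of the TATA motif shown above, and 38 bp from the centre of the AP-1 motif, and the interval covered both.

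MMP1, the main interstitial collagenase of fibroblasts, had the start with the highest pileup. At 102798228, 68 bp upstream of the start, the pileup was 324 (289.7 to 361.3) and the enrichment 7.69. The pileup exceeded that of MMP10 and the intervals did not overlap, yet the enrichment was lower, since the local background was 41.3, 2.03 times the genome-wide level. The same summit lay inside WTAPP1, a transcribed pseudogene whose annotation spans MMP1.

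MMP7 and MMP3 had weaker starts whose pileup intervals overlapped. MMP7 reached 5.30-fold at pileup 112 (92.2 to 134.8) at 102530702, which was 45 bp inside the gene. MMP3, stromelysin-1, reached 5.16-fold at pileup 109 (89.5 to 131.5) at 102843698, 89 bp upstream. Both stood on the genome-wide background. The MMP7 interval (chr11:102530580-102530840) reached 93 bp before the start and so included the AP-1 and TATA motifs shown above.

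**Figure D2:**
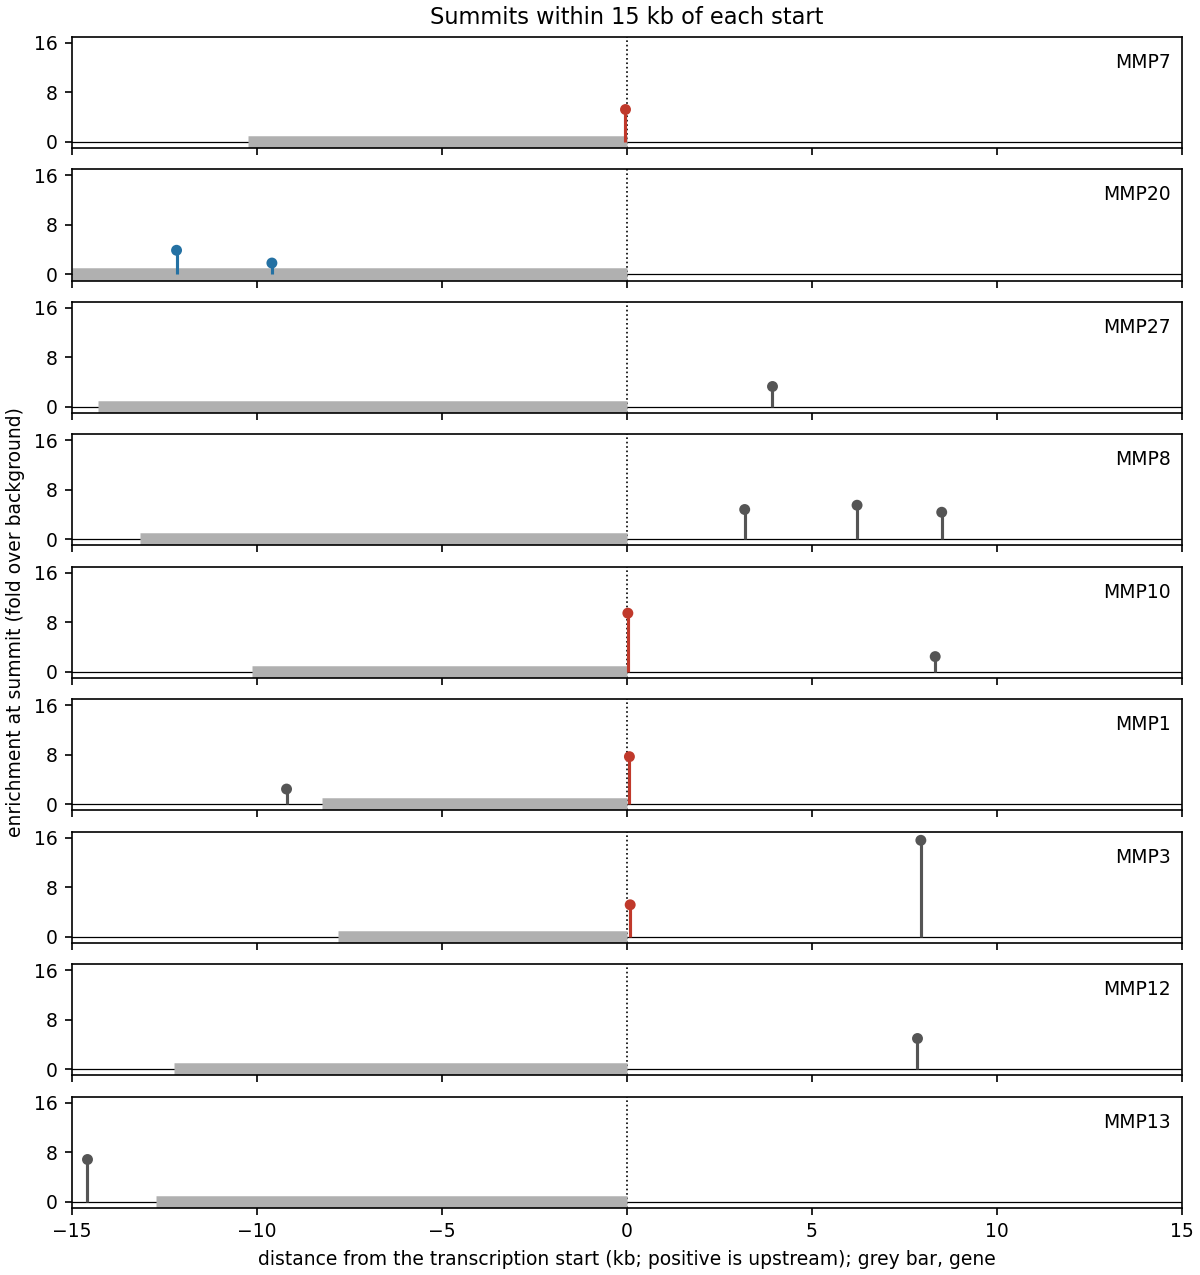
Summits near the start of each member (horizontal axis, kb from the start, positive upstream; vertical axis, enrichment; grey bar, the gene; colours as in the map of the cluster). Red summits sit on the start in MMP7, MMP10, MMP1 and MMP3, and the other 5 panels have none there.

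These 4 starts were weak next to accessible starts elsewhere. Over the 10717 coding genes with a summit at a start, the highest enrichment had a median of 12.3 (quartiles 7.89 and 15.0) and the pileup a median of 822 (quartiles 363 and 1480). MMP10 was more enriched than 32.6% of these genes, MMP1 than 24.3%, MMP7 than 15.9% and MMP3 than 15.4%. In pileup, the shares of genes below were 17.7% for MMP10 and 22.9% for MMP1, and 10.6% and 10.4% for MMP7 and MMP3. All 4 pileups were below the lower quartile. The values for all genes were the highest over every listed start and every summit within 1000 bp. Genes with several starts or summits thus had more chances of a high value, whereas each of the 4 members had 1 summit. The 4 member summits were not unusual in their distance from the start. The nearest summit lay within 100 bp of it in 56.9% of genes with an accessible start.

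Most of the nearest coding genes on either side of the cluster had more enriched starts. Of the 3 nearest coding genes on each side, 5 of 6 had a summit at the start, with enrichments of 9.64 to 17.5, all above that of MMP10. On the MMP7 side these were BIRC3 (enrichment 9.64, pileup 273) and BIRC2 (14.6 and 1573), which encode inhibitors of apoptosis, and the membrane protein gene TMEM123 (12.7 and 705). On the MMP13 side they were DCUN1D5 (14.4 and 680) and the dynein gene DYNC2H1 (17.5 and 1311). PDGFD, the growth factor gene beyond them, had no summit at its listed start. In enrichment BIRC3, at 9.64, was only just above MMP10, at 9.47. By pileup MMP1, at 324, was above BIRC3.

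**Figure D3:**
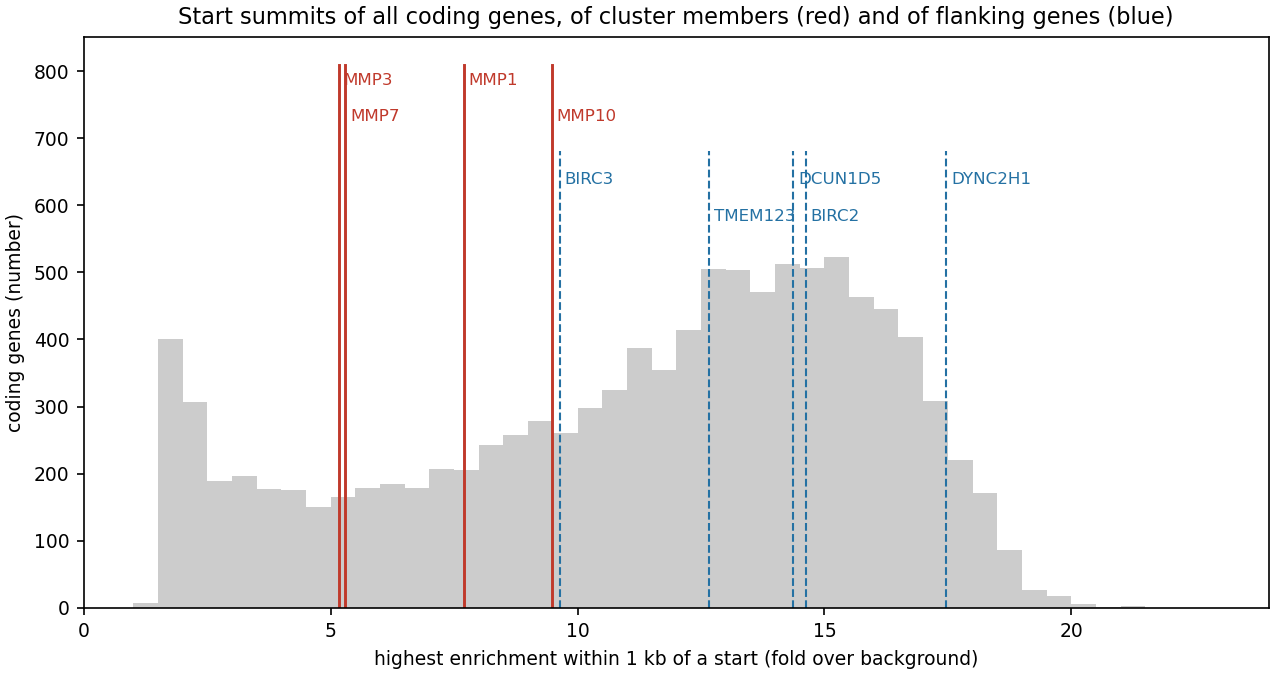
Histogram of the highest enrichment at a start (horizontal axis, fold over background) over the 10717 coding genes with one (vertical axis, number of genes). Red lines mark the 4 cluster members, between 5.16 and 9.47, and dashed blue lines the 5 flanking genes, between 9.64 and 17.5.

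The strongest sites of the cluster were away from the starts of the 9 members. The highest enrichment and pileup of all 28 belonged to a summit at 102851554 (chr11:102851138-102851737) which was enriched 15.6-fold, at pileup 693 (642.4 to 746.6) and a background of 43.5. It lay between MMP3 and MMP12, 7.95 kb upstream of the start of MMP3 and 11.2 kb from the nearer end of MMP12. It was also 919 bp outside the noncoding RNA gene LOC124902741, which overlaps MMP12. Whether that end of LOC124902741 is its start was not examined. The pileup of this summit was 6.36 times, and its enrichment 3.02 times, that at the start of MMP3. Its enrichment was higher than that of 97.1% of the 108109 summits in intervals of at most 10 kb, and 159 of the 5117 such summits on chromosome 11 were above it. Which gene this site acts on, if any, was not tested.

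The next in enrichment was the last summit of the window, at 102996423, 40.7 kb upstream of the start of MMP13. Its enrichment was 12.3 and its pileup 311 (277.4 to 347.6). MMP13, collagenase-3, had no summit in its body and none within 14.6 kb of its start. Its nearest summit, at 102941129, lay 1866 bp beyond its other end and was enriched 6.89-fold, at pileup 146 (123.3 to 171.7).

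MMP8, the neutrophil collagenase, had no summit at its start or in its body but 3 in a row upstream, at 3.18, 6.22 and 8.51 kb. Their enrichments were 4.82, 5.51 and 4.37, with pileups of 136, 163 and 103, and their backgrounds of 22.8 to 28.8 were above the genome-wide level. MMP12, the macrophage elastase, had no summit over its start or body either. Its nearest summit, 7.85 kb upstream, was enriched 5.07-fold at pileup 107. In MMP27 there was likewise no summit in the gene. The nearest to its start, 3.92 kb upstream, was closer to the body of MMP8 and was enriched 3.42-fold at pileup 72.

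Counted over the cluster, 5 of 9 members (MMP27, MMP8, MMP10, MMP3 and MMP12) had a summit more than 1000 bp and up to 10 kb upstream of the start. Over coding genes the share was 39.2%. The summit behind the MMP10 count, at 102788961, was in the widest interval of the cluster (1543 bp), was weakly enriched (2.45), and lay 958 bp beyond the other end of MMP1, inside WTAPP1.

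MMP20, the enamel protease, was the only member with summits well inside the gene. Its body of 48501 bp, the longest of the 9, held 6 summits, the nearest to the start being 9.60 kb into the gene. The strongest, at 102599836, was enriched 8.33-fold at pileup 366 (329.5 to 405.5), and its neighbour at 102603271 had 3.90 and 172. Both stood on backgrounds above 43. The other 4 were weak, with enrichments of 1.83 to 3.89 and pileups of 38 to 82. The 2 at an enrichment of 1.83 had the lowest values of the cluster, with a −log10 q of 2.33.

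Apart from MMP20, no member had a summit more than 1000 bp inside both of its ends. This was 1 of 9, against 54.8% of 8947 coding genes between 7809 and 48501 bp long, the range of the members. MMP20 alone set the upper limit of that range, and the next longest member, MMP27, had 14283 bp. The share is therefore not matched to the length of the members other than MMP20. Counting the whole body, MMP7 was added through the summit at its start, which gave 2 of 9 against 66.1% of all coding genes. The start summits of MMP10, MMP1 and MMP3 fell 26, 68 and 89 bp outside the gene and were not counted. A further MMP20 neighbour was a summit 12515 bp beyond its other end, at 102564317. Its enrichment was 9.19 and its pileup 195 (168.6 to 224.4), an interval that overlapped that of the MMP10 start. No gene of the annotation overlapped it.

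By location, 16 of the 28 summits lay between members, 6 in the body of MMP20, 4 at starts and 2 in the flanks. Of the 16 between members, the summit at 102653991 lay inside the noncoding RNA gene MMP20-AS1 and that at 102788961 inside WTAPP1. Median enrichment was 6.50 at starts (5.16 to 9.47), 4.59 between members (2.45 to 15.6) and 3.00 in the body of MMP20 (1.83 to 8.33), so the ranges overlapped. Over all 28 the median was 4.59 (95% binomial interval 3.81 to 5.51), and it was 3.93 for summits in intervals of at most 10 kb over the genome. The median pileup was 112.5 and 107 in the same comparison. The enrichments of the cluster as a whole were therefore close to those of the list.

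The sites were spread unevenly. The space between MMP8 and MMP10 held 6 summits in 45.5 kb, or 1.32 per 10 kb, while the space between MMP20 and MMP27 held 1 in 66.2 kb, or 0.151 per 10 kb. Densities were higher in 2 short spaces with few summits. MMP10 to MMP1 held 2 in 9.29 kb (2.15 per 10 kb), of which 1 was the summit at the start of MMP10. MMP27 to MMP8 held 1 in 6.03 kb (1.66 per 10 kb). The spaces run from gene end to gene end, so start summits just outside a gene are counted in them. All 6 summits between MMP8 and MMP10 had a raised background. Of these, 3 stood close together, at 102760523, 102762588 and 102763656, with enrichments of 7.14, 3.39 and 3.81 and pileups of 420, 199 and 201. Their backgrounds, 52.0 to 58.0, were the highest of the cluster, up to 2.86 times the genome-wide level, and they lay 6846 to 9979 bp beyond the other end of MMP10. The pileup of 420 (380.8 to 462.2) was above that at the start of any member, with no overlap of its interval with that of MMP1.

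**Figure D4:**
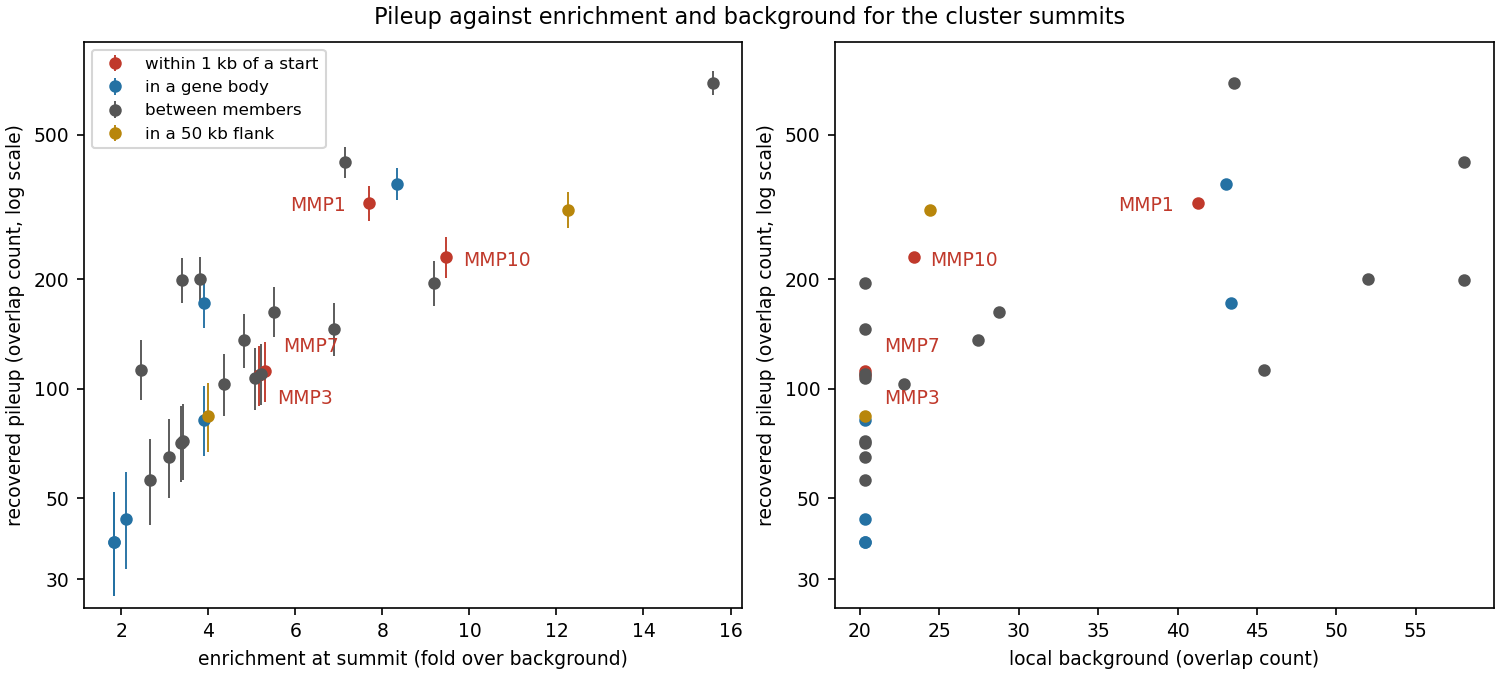
Recovered pileup (vertical axes, overlap count, log scale) of the 28 summits against enrichment (left, with exact 95% Poisson intervals) and against local background (right, overlap count). The start of MMP1 lies above that of MMP10 in pileup but to its left in enrichment, and MMP7 and MMP3 sit together on the lowest background.

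The longest stretches without a summit were 55.7 kb, from 102653991 to 102709684, which holds MMP27, and 55.3 kb, from 102941129 to 102996423, which holds MMP13. A further stretch of 45.5 kb separated the start of MMP1 from that of MMP3. Of the 28 summits, 13 (46.4%) had a background above the genome-wide level, against 65.0% of summits in intervals of at most 10 kb. In the whole list, with intervals of any length, 53.0% of summits were at the genome-wide level, so the comparison depends on the set used.

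With 28 summits, the window had 52.3 summits per Mb. Chromosome 11 had 79.3 per Mb over all intervals and 37.9 in intervals of at most 10 kb, a length that no cluster interval exceeded (the longest was 1543 bp). At the edges of the window, the outermost summits inside were at 102495596 (enrichment 3.99) and 102996423 (12.3). The nearest outside were at 102452877 (12.7), the start of TMEM123, and at 103036188 (4.32).

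Metalloproteinase genes elsewhere in the genome were counted in the same way. Of 14 such genes, 9 had a summit within 1000 bp of either end, compared with 4 of the 9 in the cluster by the same measure and 65.7% of all coding genes. Among the 9, the highest enrichment per gene had a median of 2.76. It was highest at MMP16 (9.37), MMP14 (8.37) and MMP15 (4.73), and lowest at MMP21 (1.53), MMP25 (2.22) and MMP23B (2.43).

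Markers were used to check the labelled cell type. A summit near either end was present at 7 of 8 mesenchymal genes (all but THY1), 4 of 8 epithelial genes and 4 of 8 leukocyte genes, against the same 65.7%. Among the leukocyte genes PTPRC, CD14, ITGAM and MPO had none, whereas CD3E had an enrichment of 14.5 and SPI1 of 8.44; the other 2 were CSF1R (5.42) and ELANE (3.61). The epithelial genes with a summit were KRT8 (12.7), KRT18 (1.75), EPCAM (2.11) and CDH3. The summits counted for CD3E and CDH3 lay near an end of the gene but not at a listed start. The mesenchymal genes with a summit were FN1 (15.1), SPARC (9.96), CDH2 (8.95), ZEB1 (8.74), VIM (6.64), TWIST1 (6.27) and PDGFRB (3.70). All but FN1 were below CD3E and KRT8. Whether cells of another type contributed was not tested.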

How the data were processed

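ATAC-seq was measured in 12 libraries; the deposited data are 1 peak list of 10 columns without a header, which was treated as 1 list for the whole series. Per the submitters' processing notes the build was hg38 and the tools included fastp 0.20.0, Bowtie2 2.4.3, SAMtools, deepTools 3.5.0 and MACS2 2.2.7.1; their settings, read filters and any control are not given in the sources used here. In the deposited list the enrichment is a ratio (fold over background), p and q are on the −log10 scale (lowest −log10 q 1.30), and the score equals 10 times the −log10 q, truncated, in 99.8% of lines. A further deposited column gives the summit as an offset.

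Pileup and background were solved from enrichment, taken as (pileup + 1)/(background + 1), and p, taken as the upper Poisson tail. No label states this model, or whether fragments or extended reads were piled up. A whole pileup returned the deposited −log10 p within 0.01 in 99.97% of lines and in all 28 of the cluster. A background was called raised when over 0.2% above the genome-wide level.

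Genes and promoters came from RefSeq GRCh38.p14. A summit within 1000 bp of a start counted as at the start. Genome-wide shares at or upstream of starts used 15842 of 20037 coding genes, those with a listed start, and any of their starts counted. All genome-wide shares of genes, and the strengths of accessible starts, counted summits in intervals of any length. They are not given for intervals of at most 10 kb alone. The gene table gives no strand: for the 4 members without a promoter entry the start was taken as the end with the higher coordinate, as in the other 5. All 9 members were named by rule, with the 3 nearest coding genes on either side and the 3 highest and 3 lowest other metalloproteinases. The members and lists were chosen with earlier results of these data known. The list has no samples, so no test was run. Analyses used Python 3.11.15, pandas 2.3.3, numpy 2.4.6 and scipy 1.17.1. Sequence under the distal summits was not used here.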

Additional observations from a re-analysis of the deposited data

How the results depend on the processing

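No paired analysis was possible because the list names no library, and no replicate could be left out. The 4 members with a summit at the start were counted as 4 with windows of 500 or 2500 bp, any overlap of the interval, either gene end, or a −log10 q of at least 10. Apart from either gene end, these alternatives have no genome-wide share given beside them. The number of cluster summits was between 24 (−log10 q of at least 10) and 33 (a flank of 100 kb), and the median enrichment between 4.59 and 5.11. With 1000 bp added on either side of the gene, members with a summit in the body rose from 2 to 5. Those added were MMP10, MMP1 and MMP3, through the summits just upstream of their starts. No genome-wide share with the same margin is given, so this count has no background. When all annotated genes could be the nearest, 17 of 28 summits kept their member; with the nearest start, 24 did. Ranked by pileup in place of enrichment, 4 of the 8 members with an assigned summit kept their rank. Set on intervals of at most 10 kb, an alternative chosen after seeing the data, chromosome 11 had 37.9 summits per Mb in place of 79.3, so that the cluster, at 52.3, lay below the chromosome by one count and above it by the other. Restricting the genome-wide share to coding genes with 1 listed start, also chosen after seeing the data, gave 63.7% in place of 67.6%. Depth per library is unknown.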

Other observations

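The spacing shared by MMP7 and MMP10 was rare among promoters. This was noticed in the 2 sequences and then counted, so it is a description and their own membership follows from the choice. An AP-1 motif beginning 57 to 77 bases before the start together with a TATA motif beginning 21 to 41 bases before it was found in 9 of 34943 promoter windows. Besides MMP7 and MMP10, the 9 belonged to HSPB3, NDST4, OR13G1, PRL, SCGB3A2, LOC101928338 and LOC107986638. Among the 9, only the MMP7 and MMP10 windows had a summit within 1000 bp of the start. Both had been picked for display as members with an accessible start, so their summits also follow from the choice. With them included, the share was 22.2%, against 51.0% of all windows.

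Over all promoter windows, both motifs were less common where the start had a summit. The TATA motif was in 3.66% of the 17811 windows with a summit within 1000 bp and in 11.2% of the 17132 without one, and the AP-1 motif was in 6.46% and 9.04%. Windows with both motifs had a summit in 84 of 292 cases (28.8%), against 51.0% of all windows. Of the 3 member windows with both motifs, MMP7 and MMP10 had a summit and MMP20 did not. The GC content of the 5 member windows was 33.3 to 44.3%, below the median of 58.7% over all windows.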
